A study of Mus musculus with 9 samples.

Results

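Expression of 9 genes was followed through 9 mouse brain libraries. The genes were the 4 cerebellins Cbln1, Cbln2, Cbln3 and Cbln4, the transcription factor genes Neurod1, Zic1, Zic2 and Etv1, and the cadherin gene Fat2. They were taken by symbol from a deposited table of 22192 genes, and all 9 were found in it. The genes were chosen by their TPM levels in these libraries: the list was drawn up with the levels of cerebellar genes in all 3 groups in view, so differences of the 9 genes between groups are given as descriptions, with their size and spread, and not as tests. Each of the 9 passed a filter of a mean of at least 1 TPM (transcripts per fixed library total, a level scaled for transcript length), as did 13301 genes in all. Cbln3 and Fat2 passed through the saline groups alone, since both averaged under 1 TPM with GRP-E1F2.

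The libraries came from KM mice, an outbred stock, labelled male. The GRP-E1F2 group held 18-month-old mice that received GRP-E1F2, a ginseng root polysaccharide, at 200 mg/kg by gavage every 2 days for 4 weeks. The aged saline group held 18-month-old mice given saline on the same schedule, and the young saline group held 5-month-old mice given saline likewise. Each group had 3 libraries, which the labels call parallel samples and do not tie to separate animals. The p-values below therefore measure only the spread between these libraries, which may be technical.

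Granule cells are the small excitatory neurons of the cerebellar cortex, and their axons, the parallel fibres, form synapses on Purkinje cell dendrites. At that synapse Cbln1, a secreted protein of the C1q family, binds neurexins on the parallel fibre and joins it to the Purkinje cell dendrite. Cbln3 is made by granule cells and is secreted in complexes with Cbln1, while Cbln2 and Cbln4 are also made by neurons outside the cerebellum. Neurod1, Zic1, Zic2 and Etv1 act in granule cell development and remain on in mature granule cells, and the giant cadherin Fat2 sits on parallel fibres.

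Several features of the libraries bear on all results. General neuronal genes marked every library as neural tissue, with a summed level of 3840 to 4733 TPM in the GRP-E1F2, 4255 to 4997 TPM in the aged saline and 4461 to 4597 TPM in the young saline libraries. The extraction protocol speaks of retina, but a list of 6 photoreceptor genes summed to at most 4.64 TPM in any library. The 4 Y-linked genes looked up, chosen after their values were seen, reached at most 0.174 TPM, which goes against the labelled sex. GRP-E1F2 library 3 had a level between those of libraries 1 and 2 at 91.9% of the genes at least 1.3-fold apart in that pair. The same held at 91.5% for aged saline library 2 and at 89.2% for young saline library 3, where other arrangements of 3 libraries gave 20.1% to 30.9%. At the 9 genes these libraries were in between at 8, 5 and 8 of them, and each comparison was repeated with these 3 libraries left out. TPM keeps no record of depth, so no counting error could be given.

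Genes are placed by RefSeq on the mouse assembly GRCm38.p6, whose coordinates are those of the build mm10. RefSeq promoter sequence was matched for 6 of the 9 genes, with 7 start sites because Etv1 has 2. Entries for Cbln1, Cbln2 and Zic2 were not matched. The 250 bases upstream of the start are printed for 4 genes on the gene's own strand. Cbln3 and Cbln4 show the cerebellins with the largest and the smallest difference between groups, and Neurod1 and Zic1 are transcription factor genes that were low in the same libraries as Cbln3. Capitals mark the E-box letters CANNTG, the class of site that basic helix-loop-helix factors such as Neurod1 bind.
Cbln3, chr14:55884257-55884506, minus strand: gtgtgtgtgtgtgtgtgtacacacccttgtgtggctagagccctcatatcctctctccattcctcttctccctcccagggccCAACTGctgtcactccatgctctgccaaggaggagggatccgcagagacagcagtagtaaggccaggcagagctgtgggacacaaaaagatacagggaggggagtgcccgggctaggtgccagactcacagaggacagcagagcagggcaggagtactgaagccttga
Cbln4, chr2:172043467-172043716, minus strand: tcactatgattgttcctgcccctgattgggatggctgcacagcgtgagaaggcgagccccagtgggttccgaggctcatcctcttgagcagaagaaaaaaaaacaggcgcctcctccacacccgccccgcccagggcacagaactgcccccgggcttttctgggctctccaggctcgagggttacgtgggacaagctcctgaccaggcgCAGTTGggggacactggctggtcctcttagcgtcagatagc
Neurod1, chr2:79456637-79456886, minus strand: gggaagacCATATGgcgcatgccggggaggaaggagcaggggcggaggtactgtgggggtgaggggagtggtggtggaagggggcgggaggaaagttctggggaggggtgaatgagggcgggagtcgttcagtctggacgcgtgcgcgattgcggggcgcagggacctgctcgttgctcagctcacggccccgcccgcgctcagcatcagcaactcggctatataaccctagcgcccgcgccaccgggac
Zic1, chr9:91365769-91366018, minus strand: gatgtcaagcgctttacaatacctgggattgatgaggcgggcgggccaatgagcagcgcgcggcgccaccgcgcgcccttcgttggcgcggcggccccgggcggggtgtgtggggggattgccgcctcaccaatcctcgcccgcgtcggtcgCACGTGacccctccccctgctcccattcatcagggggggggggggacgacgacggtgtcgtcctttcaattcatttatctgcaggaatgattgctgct

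Each of these 4 windows held 1 E-box, starting 168 bases before the start site in Cbln3, 41 in Cbln4, 242 in Neurod1 and 98 in Zic1. CANNTG stood in 6 of the 7 windows of the genes, and in 66.2% of the 32851 windows of the same length over all RefSeq starts, with a median of 1 match. The Fat2 window, chr11:55312258-55312507 on the minus strand, lies inside the gene's span of 55250609 to 55337505 and not upstream of its outer end. CAGATG, the form of E-box preferred by NeuroD and Atoh1 proteins, overlaps CANNTG by construction. On either strand it was found in 1 of the 7 windows, the second start of Etv1, against 14.4% of all windows. The Zic motif CAGCAGG and the ETS motif CCGGAA, searched on both strands, were in 0 of the 7 windows, against 8.44% and 12.0% of all windows. Among the 6 genes with a matched promoter, Cbln3 and Cbln4 had the most unlike profiles over the 9 libraries. They did not differ in these letter counts, and their E-boxes, CAACTG and CAGTTG, are the same site read on either strand.

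Among the cerebellins, Cbln3 (chromosome 14, 55878920 to 55884256) stood at 0.117, 0.111 and 0.343 TPM in the GRP-E1F2 libraries, at 277, 277 and 274 TPM in the aged saline libraries and at 363, 509 and 434 TPM in the young saline libraries. The 3 groups did not overlap, and the GRP-E1F2 level was 0.0690% of the aged saline level. Its difference between GRP-E1F2 and aged saline was -7.87 on the log2(TPM + 1) scale (SE 0.119). That size depended on the pseudocount, the value added to TPM before the logarithm. It was -9.98 with 0.1 TPM and -5.76 with 5 TPM. A level in bulk tissue does not tell how many granule cells a library held or how much RNA each gave. Genes of other cerebellar cells were low in the same libraries. A list of 12 Purkinje cell genes summed to 222 to 240.0 TPM with GRP-E1F2 and 1538 to 1907 TPM in aged saline libraries. The cause of these low levels was not tested.

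Cbln1 (chromosome 8, 87468853 to 87472592) stood at 10.1, 15.7 and 12.5 TPM in the GRP-E1F2 libraries, at 339, 364 and 376 TPM in the aged saline and at 534, 741 and 618 TPM in the young saline libraries. These groups did not overlap either. The GRP-E1F2 level of Cbln1 was 3.55% of its aged saline level, a larger share than for Cbln3. The log2 difference from aged saline was -4.73 (SE 0.153). Within a library Cbln1 was 1.22 to 1.37 times Cbln3 in the aged saline and 1.43 to 1.47 times Cbln3 in the young saline libraries. In the GRP-E1F2 libraries that ratio was 86.3, 141 and 36.4, where the Cbln3 values beneath it are near 0.

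Cbln2 (chromosome 18, 86711061 to 86718283) ran the other way, at 29.9, 25.4 and 27.5 TPM in the GRP-E1F2 libraries, 19.4, 15.0 and 13.1 TPM in the aged saline and 15.7, 6.44 and 12.6 TPM in the young saline libraries. The GRP-E1F2 libraries lay above all others, while the aged and young saline libraries overlapped. The log2 difference between GRP-E1F2 and aged saline was 0.78, with a 95% interval of 0.19 to 1.37. Its lowest value was in young saline library 2, the library in which 7 of the other 8 genes were highest.

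Cbln4 (chromosome 2, 172036336 to 172043466) was at 11.9, 15.2 and 14.8 TPM in the GRP-E1F2 libraries, 14.6, 12.8 and 13.0 TPM in the aged saline and 15.5, 14.0 and 15.5 TPM in the young saline libraries. The 3 groups overlapped. Its log2 difference was 0.05 between GRP-E1F2 and aged saline, with a 95% interval of -0.17 to 0.27, and -0.10 between GRP-E1F2 and young saline, with an interval of -0.32 to 0.12. Cbln4, which in other settings binds the receptors Dcc and neogenin, was thus the gene of the 9 whose level moved least.

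**Figure D1:**
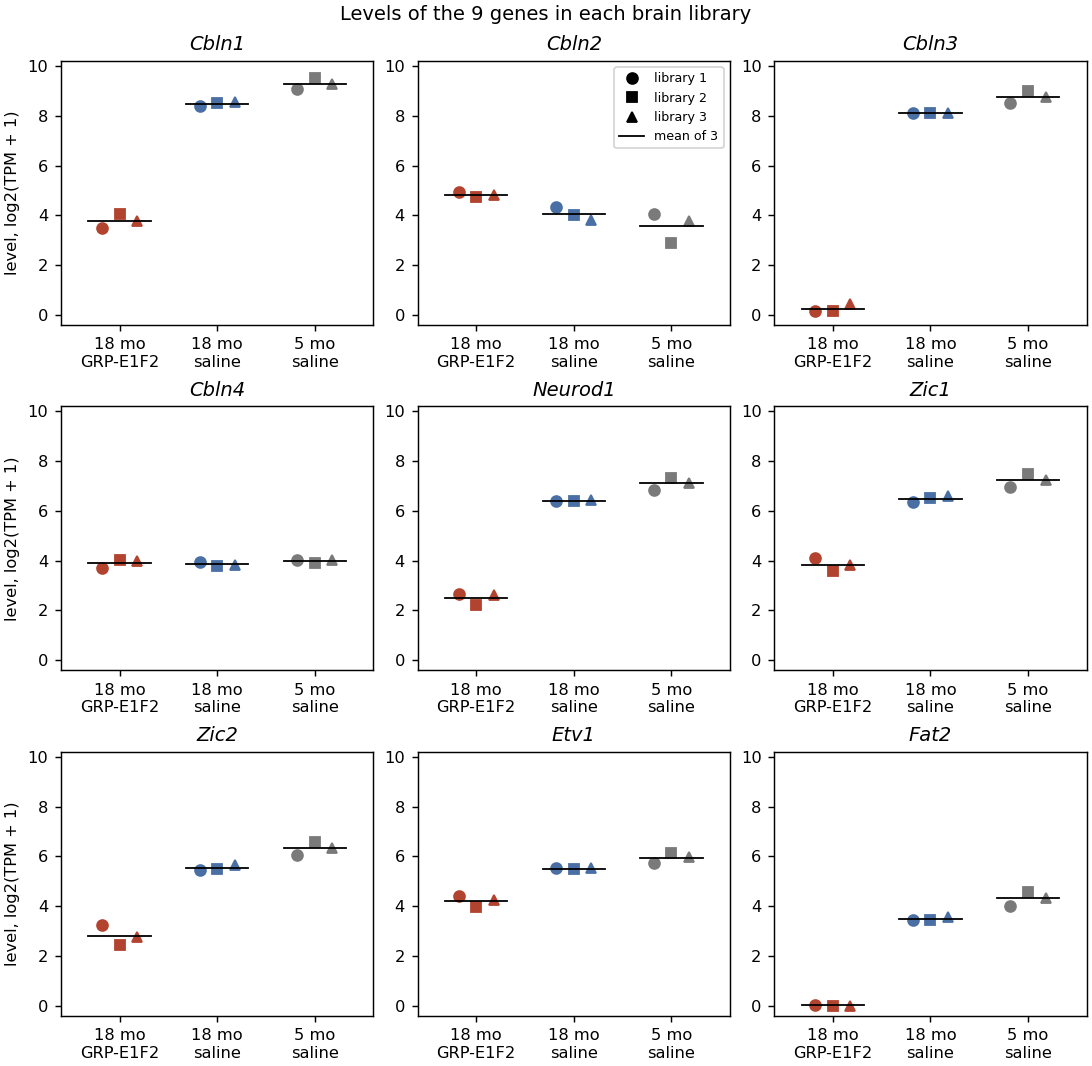
Levels of the 9 genes as log2(TPM + 1), with a symbol for each library (circle 1, square 2, triangle 3) and a bar for the mean of 3 libraries, for GRP-E1F2 at 18 months, saline at 18 months and saline at 5 months from left to right. Cbln3 and Fat2 sit at or near 0 in the GRP-E1F2 libraries, Cbln4 is level across groups, and Cbln2 is highest in the GRP-E1F2 libraries.

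The makeup of the cerebellin transcripts differed accordingly. The 4 genes summed to 52.0, 56.4 and 55.2 TPM in the GRP-E1F2 libraries, against 650.0, 669 and 675 TPM in the aged saline and 928, 1271 and 1080 TPM in the young saline libraries. Cbln1 and Cbln3 made up 54.1% ± 1.81 and 41.5% ± 1.10 of that sum in the aged saline libraries (SD, n = 3), and 57.7% ± 0.550 and 39.8% ± 0.590 in the young saline libraries (SD, n = 3). In the GRP-E1F2 libraries Cbln2 made up 50.8% ± 6.25, Cbln4 25.6% ± 2.31, Cbln1 23.3% ± 4.22 and Cbln3 0.348% ± 0.237 (SD, n = 3). Cbln1 and Cbln3 thus led the sum at both ages under saline. Cbln2 led it in each GRP-E1F2 library, where Cbln1 and Cbln4 overlapped.

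**Figure D2:**
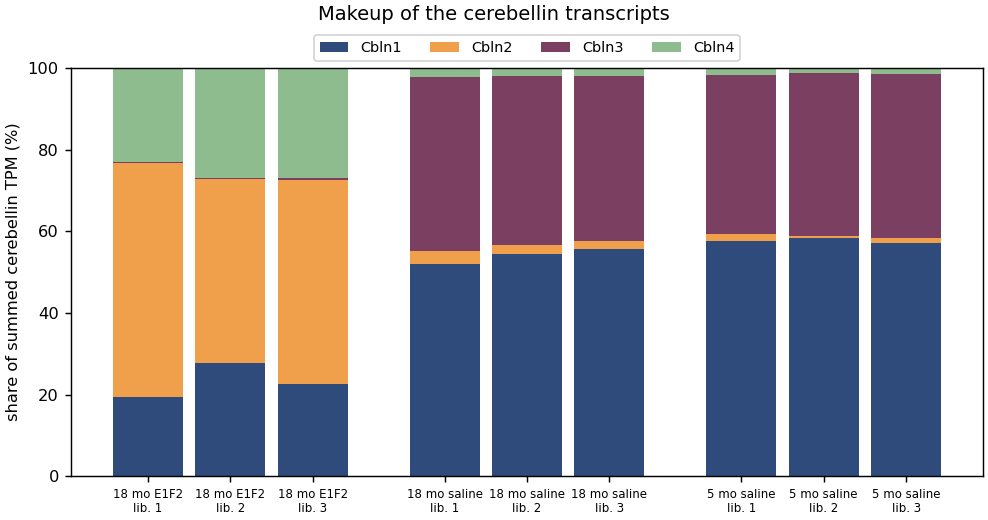
Share of each cerebellin in the summed TPM of the 4 cerebellin genes, in percent, for each of the 9 libraries (GRP-E1F2, aged saline, young saline from left to right). Cbln2 averages 50.8% in the GRP-E1F2 libraries, against 2.39% in the aged saline and 1.12% in the young saline libraries.

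Of the transcription factors, Neurod1 (chromosome 2, 79452637 to 79456636) had 5.24, 3.70 and 5.14 TPM in the GRP-E1F2 libraries, 83.0, 82.8 and 86.5 TPM in the aged saline and 115, 159.6 and 139 TPM in the young saline libraries. The groups did not overlap, and the GRP-E1F2 level was 5.58% of the aged saline level (log2 difference -3.91, SE 0.134). Neurod1 is needed for the survival of newborn granule cells and is also active in dentate granule cells and other neurons.

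Zic1 (chromosome 9, 91358058 to 91365768) had 16.3, 10.9 and 13.2 TPM in the GRP-E1F2 libraries, 80.7, 90.1 and 97.2 TPM in the aged saline and 124, 179 and 149 TPM in the young saline libraries. Zic2 (chromosome 14, 122475384 to 122480328), a close relative, had 8.54, 4.43 and 5.76 TPM with GRP-E1F2, 42.7, 44.1 and 49.0 TPM in aged saline and 65.6, 94.5 and 80.7 TPM in young saline libraries. Neither gene overlapped between groups. Their GRP-E1F2 levels were 15.1% (Zic1) and 13.8% (Zic2) of the aged saline level, larger shares than for Neurod1. The Zic1 to Zic2 ratio within a library was 2.22 ± 0.281 with GRP-E1F2, 1.97 ± 0.0773 in aged saline and 1.88 ± 0.0249 in young saline libraries (SD, n = 3 each), so both were lower by nearly the same factor. Their profiles over the 9 libraries were the closest of any pair of the 9 genes, with a root mean square difference of 0.09 on the centred log2 scale.

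Etv1 (chromosome 12, 38780082 to 38870483), an ETS factor that is also expressed in layer 5 neurons of the neocortex and in the olfactory bulb, had 19.9, 14.7 and 17.8 TPM in the GRP-E1F2 libraries, 44.7, 43.8 and 44.9 TPM in aged saline and 52.0, 70.1 and 61.5 TPM in young saline libraries. The groups did not overlap. At 39.3% of the aged saline level, Etv1 had the largest share of the 7 genes lower with GRP-E1F2 (log2 difference -1.31, SE 0.123). Fat2 (chromosome 11, 55250609 to 55337505) had 0.00854, 0 and 0 TPM in the GRP-E1F2 libraries, 9.88, 9.83 and 10.9 TPM in aged saline and 15.1, 23.0 and 19.3 TPM in young saline libraries. It was thus listed at 0 in GRP-E1F2 libraries 2 and 3, and no fold is given against such values.

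The order of levels changed between groups. In the aged and young saline libraries alike Cbln1 was highest, followed by Cbln3, Zic1, Neurod1, Zic2 and Etv1. The library ranges of Zic1 and Neurod1 overlapped, as did those of Zic2 and Etv1. Below these came Cbln2, Cbln4 and Fat2 in the aged saline libraries, where Cbln2 and Cbln4 overlapped, and Fat2, Cbln4 and Cbln2 in the young saline libraries, where each overlapped the next. In the GRP-E1F2 libraries the order was Cbln2, Etv1, Cbln4, Zic1, Cbln1, Zic2, Neurod1, Cbln3 and Fat2. There Etv1, Cbln4, Zic1 and Cbln1 each overlapped the next, as did Zic2 and Neurod1. Among all 22192 genes Cbln3 held place 14606 to 15693 in the GRP-E1F2 libraries, against place 626 to 631 in the aged saline and 355 to 490 in the young saline libraries.

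The comparison of GRP-E1F2 with saline at 18 months asked how transcript levels in the aged brain differ after the polysaccharide. With limma, a linear model fitted over all genes with Benjamini-Hochberg adjustment, 7 of the 9 genes were called lower at an adjusted p under 0.05 and none higher, while over all genes 20.8% were called, 13.4% lower and 7.47% higher. The 2 genes not called were Cbln2 and Cbln4. The libraries of the 2 groups did not overlap at the same 7 genes, where 21.5% of all genes were lower without overlap, and at Cbln2 GRP-E1F2 was higher without overlap, as at 14.9% of all genes. Since the list was drawn up with this contrast in view, nothing is read from these counts. The median log2 difference was -2.71 over the 9 genes and -0.02 over all genes tested. From 2 libraries per group the same count of 7 was called lower, against 1.86% of all genes called in either direction, and Cbln3 stood at -7.95. With each library left out in turn the 7 stayed called lower, while calls over all genes went to 1345 without aged saline library 2 and to 1376 without GRP-E1F2 library 3, against 2771 with every library. The list was drawn up from these same libraries, so nothing is read from the 7 staying called with fewer of them. Scaling moved the split of all calls, from 1777 lower and 994 higher as deposited to 1613 and 1302 with median-of-ratios scaling and to 1487 and 1425 with quantile normalisation.

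The comparison of 18 with 5 months under saline shares the aged libraries with the one above. Here 7 of the 9 genes were called lower in the aged libraries and none higher, where 16.7% of all genes were called, 11.2% lower and 5.48% higher, and again Cbln2 and Cbln4 were not called. The same 7 did not overlap, where 26.8% of all genes were lower without overlap. As the list was drawn up with all 3 groups in view, nothing is read from these counts. The 7 differences were alike in size, with Neurod1 at -0.69 on the log2 scale. The aged saline level was between 53.3% of the young saline level, for Fat2, and 72.7%, for Etv1, with Cbln1 at 57.0%, Cbln3 at 63.4%, Zic1 at 59.3% and Zic2 at 56.4%. The median log2 difference was -0.69 over the 9 genes and -0.05 over all genes tested. Cbln2 differed by 0.49, with a 95% interval of -0.11 to 1.08, and Cbln4 by -0.15, with an interval of -0.37 to 0.07.

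These age calls depended on single libraries. From 2 libraries per group none of the 9 was called, where limma called 3 of 13301 genes and 1431 had an unadjusted p under 0.05, although the differences were of like size, at -0.82 for Cbln1 and -0.64 for Cbln3. Leaving out young saline library 3 or aged saline library 2 left 1 of the 9 called, Fat2 in both cases. Leaving out young saline library 2 or aged saline library 1 left 4. Over all genes the calls went to 371 and 379 without the first pair and to 635 and 1330 without the second, against 2217 with every library. As deposited 1488 of those fell and 729 rose, against 1025 and 925 with median-of-ratios scaling.

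**Figure D3:**
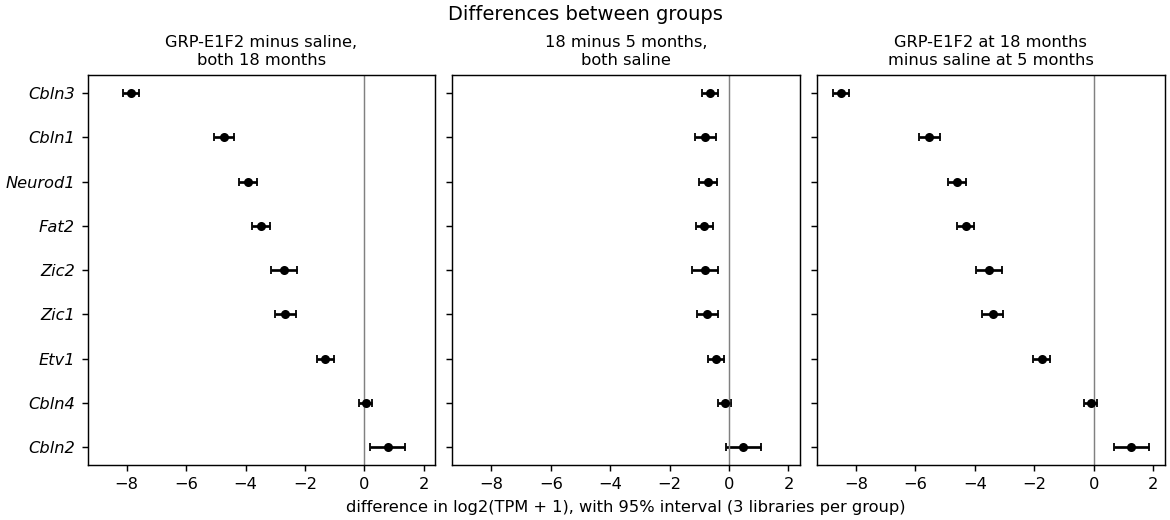
Differences in log2(TPM + 1) for the 9 genes in the 3 comparisons, with 95% intervals from the limma fit of 3 libraries per group. In the left panel the points spread from -7.87 for Cbln3 to 0.78 for Cbln2, while in the middle panel the 7 lower genes lie between -0.83 and -0.44.

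Young saline library 2 was the highest of its group at 7 of the 9 genes, and library 1 the lowest at the same 7. Between these libraries the 7 genes differed 1.35-fold (Etv1) to 1.53-fold (Fat2). Beside this, the summed level of 12 Purkinje cell genes was 3806 TPM in young saline library 2 and 2630 TPM in library 1, and that of 7 striatal genes was 239.9 TPM in library 2 and 882 TPM in library 1. Their part in the comparisons was not tested. In the aged saline libraries the 7 genes differed by at most 1.20-fold between libraries. Among the GRP-E1F2 libraries, library 1 was highest at 6 of the 9 genes and library 2 lowest at 7, at Fat2 level with library 3. Their striatal sums were 645 TPM in library 1 and 1820 TPM in library 2.

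GRP-E1F2 at 18 months against saline at 5 months, which shares libraries with both other comparisons, gave 7 genes called lower and 1, Cbln2, called higher, where 46.6% of all genes were called, 29.4% lower and 17.2% higher. The same 7 were lower and Cbln2 higher without overlap, as were 38.5% and 22.9% of all genes. Nothing is read from these counts either, nor from the count with 2 libraries per group below. Cbln3 was at 0.0437% and Cbln1 at 2.02% of the young saline level, and Cbln2 was 2.39-fold higher. From 2 libraries per group the same number, 7, was called lower and Cbln2 was not called, where 12.9% of all genes were. Over all genes 3910 fell and 2294 rose as deposited, against 3074 and 3015 with median-of-ratios scaling.

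Another 13 granule cell genes were listed by what is known of that cell type. Like the 9 genes they were listed with earlier results of these data known, so their direction is no independent evidence, and 1, Barhl1, passed the filter only through the saline groups. With GRP-E1F2 against aged saline 10 of 13 fell and none rose (median log2 difference -1.12, against -0.02 over all genes, of which 13.4% fell). Gabra6, the GABA-A receptor subunit typical of granule cells, was at 1.35 ± 0.403 TPM with GRP-E1F2, against 97.0 ± 4.92 TPM with saline (SD, n = 3 each; log2 difference -5.39, limma adjusted p = 1.92e-07). Il16, which has a neuronal form in granule cells, was at 1.10 ± 0.164 TPM with GRP-E1F2 and 13.4 ± 0.577 TPM with saline (SD, n = 3 each). Chn2, the beta-chimaerin gene, was at 23.9 ± 3.15 TPM with GRP-E1F2 and 158 ± 3.18 TPM with saline (SD, n = 3 each). Grm4, Grin2c, Pax6, Barhl1, Gabrd, Reln and Cacng2 fell by 1.67, 1.43, 1.12, 1.99, 0.70, 0.66 and 0.64 on the log2 scale.

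The 3 genes of that list that did not pass were Calb2, the calretinin gene, at 90.4 ± 42.3 TPM with GRP-E1F2 and 159 ± 38.7 TPM with saline, Slc17a7, the vesicular glutamate transporter also abundant in neocortex, at 612 ± 167 and 533 ± 12.3 TPM, and Kcnk9, a potassium channel, at 5.99 ± 1.15 and 5.71 ± 0.731 TPM in the same order (SD, n = 3 each). From 2 libraries per group 7 of the 13 fell with GRP-E1F2 against aged saline, where 1.86% of all genes were called in either direction. With age under saline 9 of 13 fell and none rose, against 11.2% and 5.48% of all genes (median log2 difference -0.48). None of the 13 passed with age from 2 libraries per group, where 3 of 13301 genes did. The count with age was 1 without young saline library 3 or aged saline library 2. It was 3 without young saline library 2 and 5 without aged saline library 1. With GRP-E1F2 against young saline 11 fell and 1, Slc17a7, rose, where 29.4% of all genes fell and 17.2% rose.

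The cerebellin partner genes reported here passed the test about as often as all genes did. Of 10 genes for neurexins, a delta receptor, Dcc, neogenin and the related C1q-like proteins with their receptor, 9 were tested, since Dcc stayed below the filter at 0.964 ± 0.0437 TPM with GRP-E1F2, 0.828 ± 0.0231 TPM in aged saline and 0.622 ± 0.150 TPM in young saline libraries (SD, n = 3 each). With GRP-E1F2 against aged saline 2 of these 9 rose and none fell (median log2 difference 0.08), where 20.8% of all genes passed in either direction. It was a count that was 1 without aged saline library 2 or 3, young saline library 3 or any of the GRP-E1F2 libraries. From 2 libraries per group none of the 9 passed in any of the 3 comparisons.

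Grid1, which encodes the delta receptor GluD1 found widely in forebrain, rose to 17.3 ± 0.146 TPM with GRP-E1F2, against 14.8 ± 0.201 TPM with aged saline (SD, n = 3 each; log2 difference 0.22, limma adjusted p = 0.0423). This call ended when any library of those groups was left out, or young saline library 3. C1ql3, a C1q-like gene of forebrain neurons, rose to 61.4 ± 19.4 TPM with GRP-E1F2, against 31.2 ± 1.70 TPM with aged saline (SD, n = 3 each; log2 difference 0.91, limma adjusted p = 0.0104). The presynaptic neurexin genes Nrxn2 and Nrxn3 differed by 0.08 (95% interval -0.11 to 0.26) and -0.03 (-0.20 to 0.13), and neither passed. With age 1 of the 9 fell, where 16.7% of all genes passed, the neogenin gene Neo1, by 0.24 on the log2 scale (limma adjusted p = 0.0298). The age count was 3 without aged saline library 3, where Neo1 was not among them, and 0 without GRP-E1F2 library 3, aged saline library 2, or young saline library 2 or 3. With GRP-E1F2 against young saline 2 fell, Neo1 and C1ql4, and 2 rose, where 46.6% of all genes passed. C1ql4 averaged 0.221 TPM with GRP-E1F2 and passed the filter only through the saline groups, so nothing is read from its call.

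Relatives of the transcription factors and of Fat2 behaved unevenly. Of 11 such genes 8 were tested, and with GRP-E1F2 against aged saline 4 fell and 1 rose, where 13.4% and 7.47% of all genes did. Zic5 passed the filter only through the saline groups. Atoh1, the factor of granule cell precursors, was listed at 0 in all 9 libraries, and Neurod4 and Fat4 were below the filter. Zic4 was at 1.94 ± 0.618 TPM with GRP-E1F2 and 5.68 ± 0.133 TPM with saline, and Zic5, a neighbour of Zic2 in the genome, at 0.534 ± 0.216 TPM and 4.98 ± 0.298 TPM (SD, n = 3 each; log2 differences -1.21 and -1.97, limma adjusted p = 0.000689 and 1.14e-05). Both also passed from 2 libraries per group, where they were the only 2 of the 8 that did. Etv4 and Fat1 fell by 0.43 and 0.53 on the log2 scale, and Fat3 rose by 0.40. Neurod2, Neurod6 and Etv5 were not called. Neurod2 was at 29.1 ± 12.0 TPM with GRP-E1F2 and 47.7 ± 1.44 TPM with aged saline (SD, n = 3 each). In the same order Neurod6 was at 40.1 ± 17.7 and 31.2 ± 8.15 TPM, and Etv5 at 32.3 ± 10.0 and 25.1 ± 3.38 TPM (SD, n = 3 each). With age Zic4 and Fat1 fell, where 11.2% of all genes fell, and neither passed from 2 libraries per group. In turn, with GRP-E1F2 against young saline 5 of the 8 fell and 2 rose, where 29.4% and 17.2% of all genes did.

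**Figure D4:**
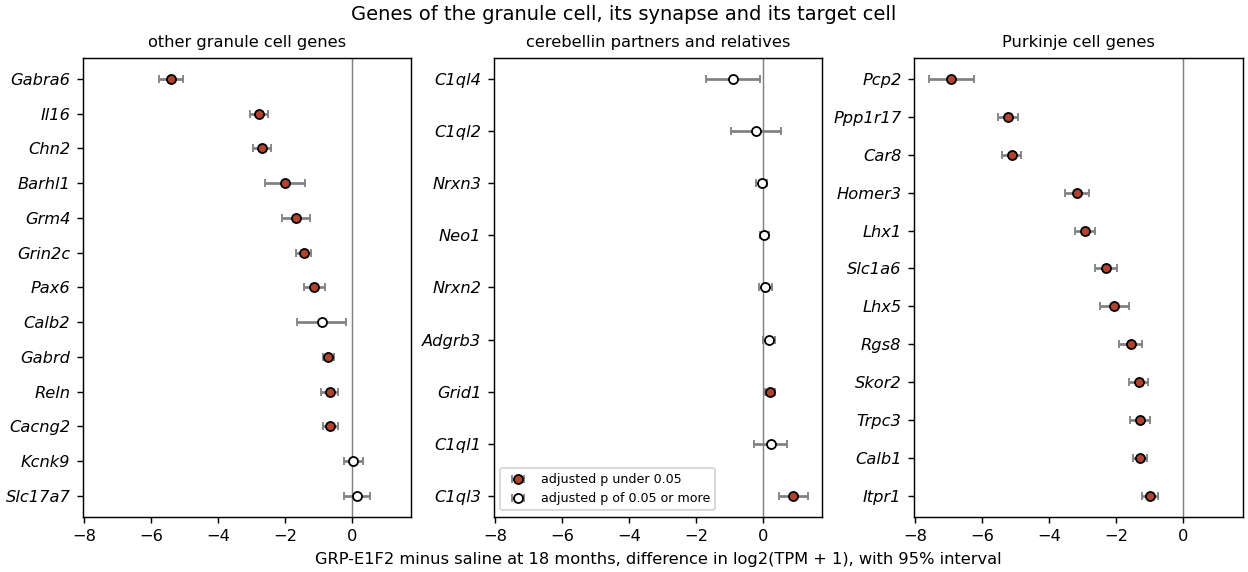
Differences in log2(TPM + 1) between GRP-E1F2 and saline at 18 months, with 95% intervals, for 13 other granule cell genes, 9 tested partners and relatives of the cerebellins, and 12 Purkinje cell genes (3 libraries per group; filled points passed an adjusted p of 0.05). Gabra6 lies at -5.39 and Pcp2 at -6.92, while Nrxn2 and Nrxn3 lie at 0.08 and -0.03.

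Markers of other cells moved beside the 9 genes, and their part in the results was not tested. The 12 Purkinje cell genes summed to 222 to 240.0 TPM in the GRP-E1F2, 1538 to 1907 TPM in the aged saline and 2630 to 3806 TPM in the young saline libraries. All 12 fell with GRP-E1F2 against aged saline, also from 2 libraries per group, where 13.4% and 1.86% of all genes were called, but 4 of them passed the filter only through the saline groups, among them Skor2, at 0 in all 3 GRP-E1F2 libraries. With age 11 of the 12 fell, where 11.2% of all genes did. None of the 12 passed with age from 2 libraries per group, where 3 of 13301 genes were called. The 6 genes of Bergmann glia, cerebellar interneurons and the midbrain-hindbrain border summed to 4.52 to 5.63 TPM with GRP-E1F2, 65.0 to 71.8 TPM in aged saline and 93.5 to 133 TPM in young saline libraries, with Pax2 at 0 under GRP-E1F2. The 5 hindbrain genes summed to 0.181 to 0.657 TPM with GRP-E1F2, 1.58 to 6.99 TPM in aged saline and 36.6 to 51.0 TPM in young saline libraries, with Hoxb5 and Slc6a5 at 0 under GRP-E1F2. No calls are counted for these last lists, since 5 of the 6 and 5 of the 5 genes averaged under 1 TPM with GRP-E1F2 and passed the filter only through other groups.

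Marker genes of other regions and cell types, several of which express some of the 9 genes, were read from the same bulk libraries. With 3 libraries per group 13.4% of all genes fell and 7.47% rose with GRP-E1F2 against aged saline, and 11.2% fell and 5.48% rose with age. None of the calls below passed from 2 libraries per group in either comparison. Of 7 olfactory bulb genes 6 were tested and 3 rose with GRP-E1F2 against aged saline, with sums of 40.0 to 143 TPM in the GRP-E1F2, 37.0 to 41.5 TPM in the aged saline and 26.2 to 30.4 TPM in the young saline libraries, and 1 of the 6 passed the filter only through the GRP-E1F2 libraries. Neocortical genes summed to 88.6 to 172 TPM, 81.3 to 118 TPM and 35.5 to 60.7 TPM in the same groups, and none of 6 passed against aged saline while 3 rose with age. Meningeal fibroblasts, which express Zic genes, gave sums of 37.6 to 46.8 TPM, 43.2 to 67.7 TPM and 107 to 121 TPM, with 1 of 8 genes falling against aged saline and 6 with age. Thalamic and habenular genes gave 18.5 to 23.4 TPM, 26.2 to 67.7 TPM and 43.6 to 44.8 TPM, with 2 of 6 falling against aged saline, where 2 of the 6 averaged under 1 TPM with GRP-E1F2. Genes of dentate granule cells gave 2.50 to 5.39 TPM, 4.78 to 5.57 TPM and 4.52 to 5.44 TPM, with 1 of 2 tested falling against aged saline. None of 7 striatal genes passed in either comparison, with sums of 645 to 1820 TPM, 874 to 1253 TPM and 239.9 to 882 TPM.

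Profiles most like each of the 9 genes were sought over the 9 libraries, as the smallest root mean square difference of log2(TPM + 1) after each gene was centred on its own mean. Nearest to Cbln3 were Pcp2 (0.52), a Purkinje cell gene, Cnpy1 (0.65) and Gabra6 (1.13). Nearest to Cbln1 were En2 (0.24), Car8 (0.25) and Dao (0.26), and nearest to Neurod1 were Crtam (0.21), Dao (0.24) and Arhgef33 (0.26). Fat2 was nearest to Arhgef33 (0.07), Crtam (0.12) and Homer3 (0.17). Crtam stood at 0 in all 3 GRP-E1F2 libraries, at 10.4 ± 0.487 TPM in aged saline and at 22.8 ± 4.67 TPM in young saline libraries (SD, n = 3 each). En2, Cnpy1, Dao, Crtam and Arhgef33 averaged under 1 TPM with GRP-E1F2 and passed the filter only through the saline groups. Likeness between genes near 0 there follows largely from their saline levels, so nothing is read from it.

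Zic1 and Zic2 had the same 3 nearest genes, Pvalb, the parvalbumin gene (0.14 and 0.20), Il16 (0.16 and 0.17) and Lhx1 (0.18 and 0.21). Closeness on the log2(TPM + 1) scale does not mean a like fold at low levels. Lhx1 averaged under 1 TPM with GRP-E1F2, at 0.879% of its aged saline level. Il16 was at 8.22%, against 15.1% for Zic1 and 13.8% for Zic2. Pvalb, a high gene, averaged 356 TPM with GRP-E1F2 and 1944 TPM in aged saline. Etv1 was nearest to Tmem145, Dusp5 and Shf, each at 0.06. Cbln2 was nearest to Lzts1 (0.13), Htr2a (0.14), the serotonin 2A receptor gene, and Syt5 (0.15), none of them a granule cell marker in the lists used. Htr2a was at 6.73 ± 0.189 TPM with GRP-E1F2, 3.80 ± 0.872 TPM in aged saline and 2.23 ± 1.12 TPM in young saline libraries (SD, n = 3 each). Cbln4 was nearest to Helb, Tti2 and Gtf2ird1 (0.04 to 0.05), genes whose levels were likewise flat, so that likeness there says little.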

How the data were processed

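RNA from 9 mouse brain libraries, 3 per group, was sequenced after library preparation with the NEBNext Ultra II kit, per the labels' protocols. The tools HISAT2, Picard, SAMtools (0.1.18) and GATK and the build mm10 are listed without roles in the submitters' processing notes. The deposited values are TPM computed by the authors, with library sums of 999667 to 999929. The quantifying tool, the annotation and the strand setting were not given in the sources used here. Levels of genes with near-identical copies are therefore uncertain.

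The table's columns carry the sample titles. Values were taken as log2(TPM + 1), which understates the change of low genes. A linear model was fitted to all 9 libraries together by limma 3.58.1 (R 4.3.3, eBayes with trend) for the 13301 genes averaging 1 TPM or more. Tests were two-sided with Benjamini-Hochberg adjustment over all genes tested. The fit was tested on simulated data. The 9 genes and all lists were chosen with earlier results of these data known. Named were the 9 genes, all genes of 3 lists (granule cell genes, cerebellin partners, relatives of the factors), up to 3 genes per other list by mean TPM, and the 3 nearest profiles per gene, predicted genes left out. Marker genes at 0 in a group were named besides. Some genes of the lists are not reported here, and list counts and sums leave them out. Alternatives were other pseudocounts, filters and scalings, a replicate block, fits of the groups compared alone, eBayes without trend and fewer libraries. Python 3.11.15 with pandas 2.3.3 and matplotlib 3.10.9 was used for the rest.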

Additional observations from a re-analysis of the deposited data

How the results depend on the processing

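For the 9 genes, no call changed sign under any alternative run, and 493 differences moved by less than the residual SD. Another 20 moved further, all of them with another pseudocount. Cbln3 between GRP-E1F2 and aged saline was -9.98 with a pseudocount of 0.1 TPM and -5.76 with 5 TPM, and Fat2 was -6.65 and -1.60. The median over the 9 genes was -2.17 with 5 TPM against aged saline and -2.92 against young saline. Cbln2 against aged saline was called higher under 5 alternatives, the 5 TPM pseudocount, the replicate block, the fit of those groups alone, and without young saline library 1 or 2.

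With 2 libraries per group the calls over all genes were 248 for GRP-E1F2 against aged saline, 3 with age and 1713 for GRP-E1F2 against young saline. In the same fits 0 cerebellin partner genes in each comparison and, with age, 0 other granule cell genes passed. With each library left out in turn, 1345 to 3060 genes passed against aged saline and 371 to 2635 with age, with age 1 to 11 other granule cell genes, and 1 to 3 partner genes against aged saline and 0 to 3 with age. In the fit of GRP-E1F2 and aged saline alone 1 partner gene passed. Against aged saline 1345 genes passed without aged saline library 2 and 1376 without GRP-E1F2 library 3, and with age 1172 passed without GRP-E1F2 library 3. Every other library left out alone gave a higher count against aged saline, such as 3060 without aged saline library 1 and 2596 without GRP-E1F2 library 1. The cause was not tested.

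Libraries that share a replicate number did not deviate together, since the correlation of their deviations over genes was over 0.1 in 1 of 9 pairs (-0.05 to 0.13). With the replicate block 2589, 2055 and 5944 genes passed in the 3 comparisons, with 1 partner gene against aged saline and 0 with age. The depth behind the TPM values is unknown, so it cannot be said how far values near 0, as of Cbln3 and Fat2, are limited by it.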
